A study of Rattus norvegicus with 4 samples.

Results

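The collagen genes are the 43 of 32623 genes in the deposited count matrix whose symbol has the form Col, a number, a and a number. They comprise 11 fibrillar collagens, 8 basement membrane collagens, 9 collagens of the fibril-associated kind (FACIT), 5 chains of the beaded filament collagen and 10 network, anchoring, transmembrane and other collagens. Col6a3 and Col21a1 are not among the 43 and are not analysed here. The nuclei came from tissue labelled infarct zone in hearts of Sprague Dawley rats and were sequenced for RNA in 4 samples of 1 library each, 3 of them after myocardial infarction (named MI_1H, MI_6H and MI_24H for 1, 6 and 24 h) and the last from sham surgery (named Sham). The series text describes ligation of the left anterior descending coronary artery for those hours, while the treatment labels give them as hours of reperfusion, so what they count is not settled here. How many animals a library pools, and their age and sex, is not stated. The libraries were told apart by the barcode suffixes 1 to 4, which no source ties to a sample. Libraries 1 to 4 therefore carry no treatment in what follows, and infarction was not compared with sham surgery.

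Collagens are secreted proteins of 3 chains wound into a triple helix. Fibrillar collagens of types I, III and V assemble into the fibres that carry tension in the heart wall and, after infarction, in the scar. Type IV chains form sheet-like networks in the basement membranes that surround cardiomyocytes, capillaries, mural cells and Schwann cells. FACIT collagens sit on the surface of fibrils, and type VI forms fine beaded filaments next to basement membranes.

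Filters on depth and doublets left 8364, 12898, 14288 and 6181 nuclei in libraries 1 to 4. Their median depths were 1296, 602, 1884 and 2215 UMIs per nucleus, where a UMI (unique molecular identifier) stands for 1 captured RNA molecule. Nuclei were clustered without the collagen genes, and 21 of 26 clusters could be named from marker lists that hold no collagen, which gave 10 classes. Classes are called fibroblast-like and so on because the names rest on markers alone. Pdgfra, a receptor that marks cardiac fibroblasts, was at 532, 418, 727 and 512 CPM (UMIs of a gene scaled to 1000000 UMIs of the class and library) in fibroblast-like nuclei of libraries 1 to 4, against 17.4, 51, 89.7 and 41 in endothelial-like nuclei. Fibroblast-like nuclei numbered 2391, 821, 2869 and 848, mural-like nuclei (pericytes and smooth muscle) 599, 148, 409 and 333, endothelial-like nuclei (endocardial included) 2118, 35, 2472 and 2072 and cardiomyocyte-like nuclei 2686, 393, 1112 and 732. Library 2 stood apart, since 85.1% of its nuclei lay in clusters that no marker list named and only 35 were endothelial-like. Endothelial values are therefore given for libraries 1, 3 and 4. Pairs of libraries shared between 22 and 78 barcodes. With 1 library per sample there was no replicate spread and no test. A gene was counted as higher or lower in a class when its CPM in that class differed at least 2-fold on the log2(CPM + 10) scale from that of all other named nuclei of the same library, with at least 30 UMIs in the groups compared. Intervals are exact Poisson 95% intervals and cover counting error only.

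Fibroblast-like nuclei had more collagen RNA than any other of the 10 classes in each of the 4 libraries. All collagen genes together took 10902, 10427, 14923 and 12440.4 CPM in fibroblast-like nuclei of libraries 1 to 4, against 4471, 5523, 7411 and 6551 CPM in mural-like nuclei and 1854, 4441 and 3560.4 CPM in endothelial-like nuclei of libraries 1, 3 and 4. Fibroblast-like nuclei held 65.1, 72.8, 51.8 and 33.6% of the collagen UMIs of named nuclei in libraries 1 to 4, while they held 18.7, 46.1, 26.2 and 14.8% of all UMIs of those nuclei. The share of library 2 depended on the clustering, and was 43.4% with collagens among the variable genes, 43.3% at a finer resolution and 14.1% with variable genes chosen over all libraries at once. The share in library 4 was the lowest of the 4 first given (95% binomial interval 33.3 to 33.9%), and there endothelial-like nuclei held 23% and macrophage-like nuclei 17.8% of collagen UMIs. Of the 24 collagen genes with enough UMIs in every library, 11 were higher in fibroblast-like nuclei in all 4 libraries and 0 were lower, against 2.09% of all genes higher and 2.37% lower by the same rule. Library by library the counts were 17 of 32, 14 of 24, 13 of 34 and 14 of 33 genes higher, where 9.81, 5.23, 3.77 and 4.19% of all genes were. The median log2 difference of the collagen genes counted was 1.17, 1.28, 0.61 and 0.68, against 0.22, 0.12, 0.03 and 0.04 for all genes. The other named nuclei differ in makeup between libraries, so that the size of a difference is not comparable from library to library.

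**Figure D1:**
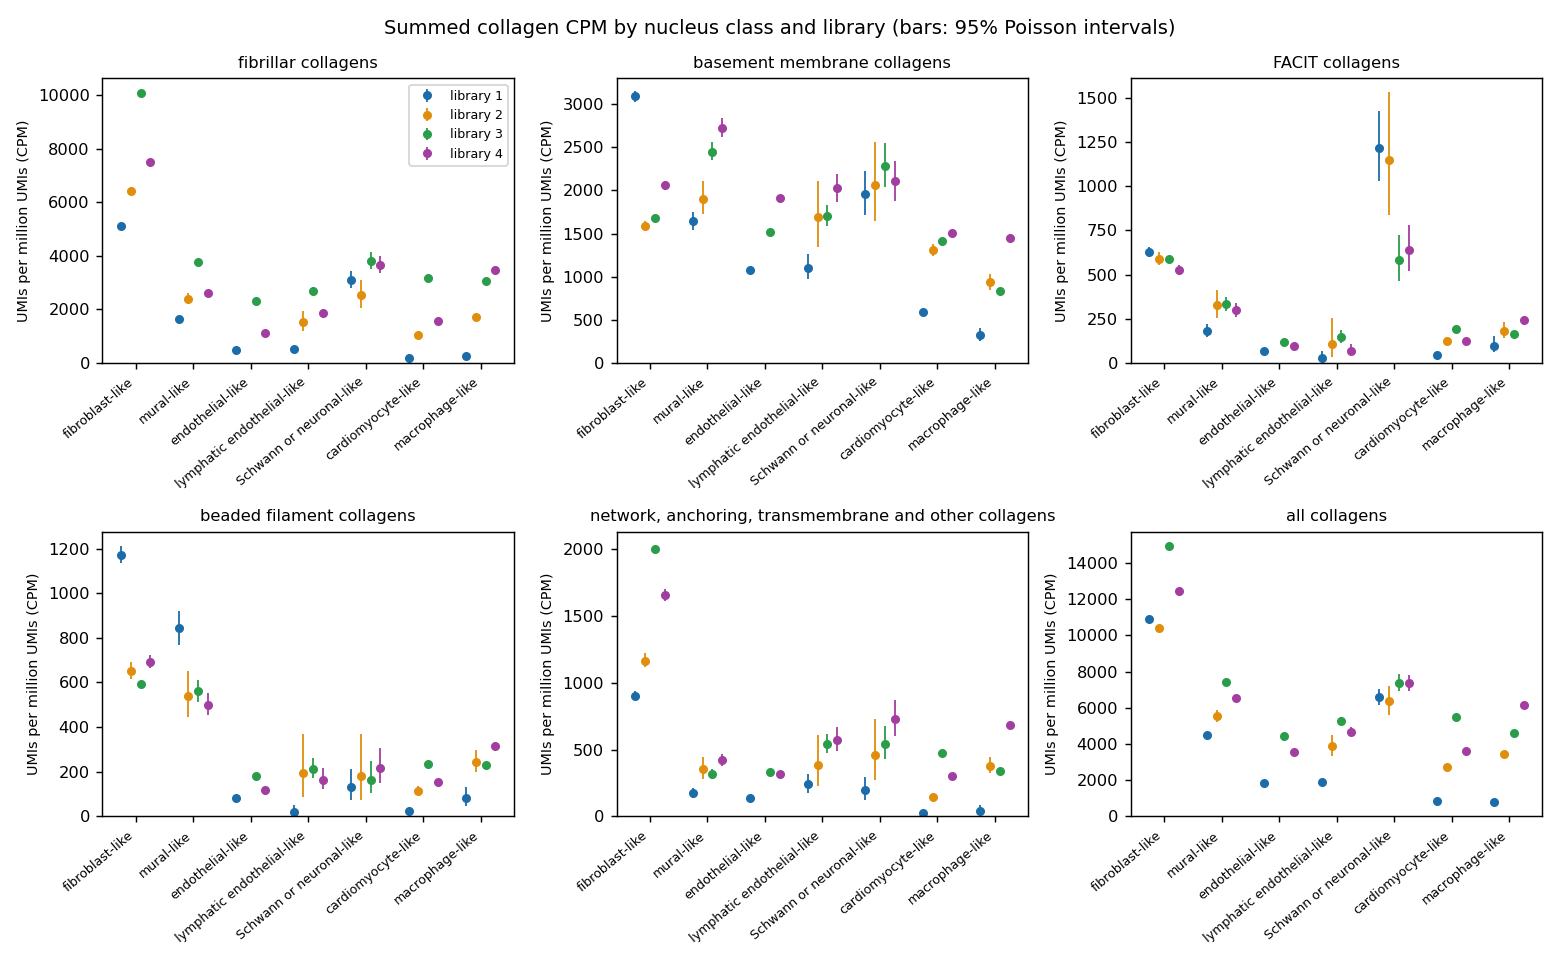
Summed CPM of each collagen group (y axis, linear) in 7 nucleus classes (x axis), with a point for each library and 95% Poisson intervals. Fibrillar collagens of fibroblast-like nuclei lay between 5106 and 10069 CPM, above each other class shown, whereas basement membrane collagens overlapped between classes. Endothelial-like nuclei of library 2 are left out because there were 35.

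Among fibrillar collagens the RNA of types I, III and V was highest in fibroblast-like nuclei. Col1a1, a chain of type I collagen, the main collagen of the scar, was at 478, 1449, 2225 and 1582 CPM in fibroblast-like nuclei of libraries 1 to 4, against 25.2, 377, 774 and 417 CPM in all other named nuclei. Col3a1, the chain of type III collagen that forms fibres with type I, was at 2479.5, 2312, 5121 and 3557 CPM in fibroblast-like nuclei, against 114, 411, 1596 and 866 CPM in the others. Both genes were lowest among the other nuclei in library 1, and the log2 difference was largest there, 3.80 for Col1a1 and 4.33 for Col3a1. Type V collagen starts fibrils and limits their width. Its genes Col5a1 (531, 672, 454 and 457 CPM), Col5a2 (879, 1315, 1698 and 1322 CPM) and Col5a3 (616, 406, 484 and 480.5 CPM) were at least 2-fold higher in fibroblast-like nuclei of each library. Their levels in the other named nuclei were 27.5, 113, 88.9 and 94 CPM for Col5a1, 96.6, 260.4, 363 and 292 CPM for Col5a2 and 28.9, 128, 112 and 104 CPM for Col5a3. Col5a2 was the exception to the rank of the class, since it stood at 1118 CPM (95% interval 939 to 1322) in the 109 Schwann or neuronal-like nuclei of library 1, against 879 (846 to 914) in its fibroblast-like nuclei. Col24a1, a minor fibrillar collagen, was at 69.7, 31, 14 and 26.2 CPM in fibroblast-like nuclei and 95.3, 34.4, 22 and 43.4 CPM in mural-like nuclei. It was at least 2-fold higher in mural-like nuclei than in all other named nuclei in libraries 1 and 4, where 5.67 and 2.19% of all genes were.

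Col1a2 encodes the partner chain of Col1a1 in type I collagen, yet its counts were low and followed another order between libraries. It was at 9.91, 78.2, 9.65 and 7.68 CPM in fibroblast-like nuclei of libraries 1 to 4. Library 2 thus stood above the rest, also in mural-like nuclei, at 1.77, 63.9, 8.1 and 3.72 CPM, and in macrophage-like nuclei, at 4.84, 59, 5.75 and 5.21 CPM. In fibroblast-like nuclei there were 48.3, 18.5, 231 and 206 UMIs of Col1a1 for each UMI of Col1a2. UMIs from the 3' end depend on how each gene's end is annotated, so the ratio is not one of chain levels, and only its spread between libraries is described here.

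Chains of the beaded filament collagen were shared by fibroblast-like and mural-like nuclei. Col6a2, a chain of type VI collagen, was at 604, 543, 445 and 515 CPM in fibroblast-like nuclei and 505, 423, 397 and 344 CPM in mural-like nuclei of libraries 1 to 4, against 43.1, 134 and 81.3 CPM in endothelial-like nuclei of libraries 1, 3 and 4. Col6a1, its partner chain, was at 110.0, 54.3, 90.0 and 82.4 CPM in fibroblast-like nuclei and 134, 63.9, 77.5 and 68.1 CPM in mural-like nuclei. The Col6a1 intervals of the pair of classes overlapped in each library. In library 1 they were 106 to 168 CPM in mural-like and 98.3 to 123 CPM in fibroblast-like nuclei. Neither class can therefore be put above the other for Col6a1. Col6a6, which can take the place of the Col6a3 chain, was at 457, 54.3, 55.8 and 93.2 CPM in fibroblast-like nuclei and 199, 54, 78.7 and 75.6 CPM in mural-like nuclei. All 3 genes were at least 2-fold higher in fibroblast-like nuclei than in all other named nuclei in each library. The remaining chains, Col6a4 and Col6a5, had 54 and 71 UMIs over all barcodes.

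FACIT collagens split between classes. Col14a1, which binds fibrils through decorin, was at 527, 189, 260.1 and 230.1 CPM in fibroblast-like nuclei of libraries 1 to 4, against 19.1, 33.1, 53.4 and 37.7 CPM in the other named nuclei. It was at least 2-fold higher in fibroblast-like nuclei in all 4 libraries. Col12a1, a fibril-surface collagen of tissues under load, was at 16.7, 223, 223 and 179 CPM in fibroblast-like nuclei and 68.8, 226, 231 and 193 CPM in mural-like nuclei, so that the pair of classes lay close together except in library 1. Against all other named nuclei Col12a1 was at least 2-fold higher in fibroblast-like nuclei of libraries 2, 3 and 4 and in mural-like nuclei of libraries 1, 3 and 4. Col16a1 was at 1110.1, 842, 321 and 429.9 CPM in Schwann or neuronal-like nuclei, against 64.6, 155, 93.1 and 103 CPM in fibroblast-like nuclei. Col8a1, a short-chain network collagen of vessel walls, was at 866, 1115, 1956 and 1616 CPM in fibroblast-like nuclei and 48.2, 222, 354 and 359 CPM in all other named nuclei, at least 2-fold apart in each library.

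**Figure D2:**
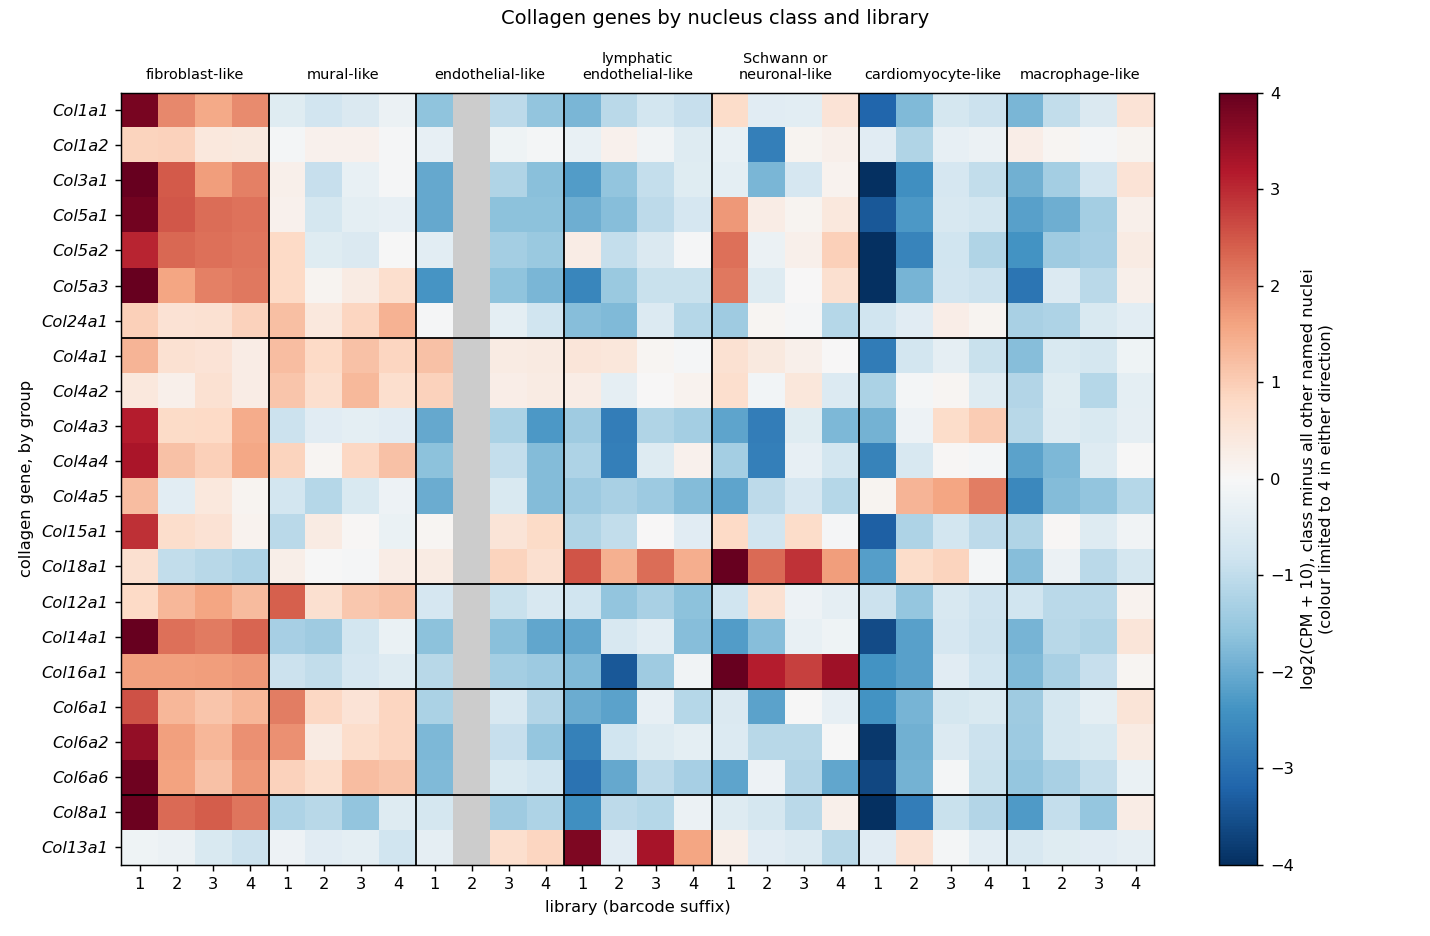
The log2(CPM + 10) difference of 22 collagen genes (rows, in their groups) between a class and all other named nuclei of the same library (columns, 4 libraries for each of 7 classes). Red marks a higher value in the class and blue a lower one. Col1a1, Col3a1, the type V genes, Col6a1, Col6a2, Col6a6 and Col8a1 were red in fibroblast-like nuclei of all 4 libraries, Col16a1 and Col18a1 were red in Schwann or neuronal-like nuclei, and grey marks the endothelial-like nuclei of library 2, left out because there were 35.

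The type IV genes fell into different patterns by pair. Col4a1 and Col4a2, whose chains build the basement membrane network of most tissues, were highest in mural-like nuclei in each library, among classes with at least 100000 UMIs in that library. Col4a1 was at 801, 1268, 1740.0 and 1783 CPM in mural-like nuclei of libraries 1 to 4, against 714, 934, 1043 and 1209 CPM in fibroblast-like nuclei. Endothelial-like nuclei had 644, 963 and 1194 CPM of Col4a1 in libraries 1, 3 and 4, close to the fibroblast-like level. Col4a2 was at 173, 177, 303 and 289 CPM in mural-like nuclei and 100.5, 121, 165 and 216 CPM in fibroblast-like nuclei. The rank was within counting error in libraries 1 and 2 for some classes. In library 1 the mural-like interval of Col4a1 (729 to 879 CPM) overlapped the fibroblast-like interval (683 to 745 CPM). That of Col4a2 overlapped the endothelial-like interval in library 1 and the fibroblast-like interval in library 2. In mural-like nuclei both genes were at least 2-fold higher than in all other named nuclei in libraries 1 and 3, where 5.67 and 1.90% of all genes were, and in library 2 and library 4 they were not, with log2 differences of 0.79 and 0.85 for Col4a1 and 0.66 and 0.68 for Col4a2. Col12a1 and Col25a1 were the genes higher in mural-like nuclei in libraries 1, 3 and 4 together, 2 of 31 collagen genes, where 1.58% of all genes were. After free RNA was subtracted the count was 7. Col25a1, a transmembrane collagen with 154 UMIs in all, was at 37.1, 14.7, 24.3 and 14.9 CPM in mural-like nuclei and at no more than 6.45 CPM in any other class of any library.

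Col4a3 and Col4a4 encode chains of another type IV network, known from the filtration membrane of the kidney, where they assemble with Col4a5. In the heart nuclei Col4a3 was at 780.5, 76.4, 84.1 and 163 CPM in fibroblast-like nuclei of libraries 1 to 4, against 53.2, 19.6 and 12.1 CPM in endothelial-like nuclei of libraries 1, 3 and 4. Col4a4 was at 620.2, 82.9, 107 and 148 CPM in fibroblast-like nuclei and 297, 59, 120.3 and 139 CPM in mural-like nuclei. Library 1 was the highest for both genes in fibroblast-like and in mural-like nuclei. Col4a5 was at 595, 142, 136 and 134 CPM in fibroblast-like nuclei and at 321, 310.3, 249.9 and 306 CPM in cardiomyocyte-like nuclei. Among the 22 genes named by rule it was the one that was highest in cardiomyocyte-like nuclei, at least 2-fold above all other named nuclei in libraries 2, 3 and 4, whose other nuclei had 115, 77.4 and 66.5 CPM and where 6.01, 3.74 and 5.17% of all genes were. In library 1 fibroblast-like nuclei had more of it than cardiomyocyte-like nuclei. Col4a6, its neighbour in the genome, had 102 UMIs over all barcodes.

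Both Col4a1 with Col4a2 and Col4a3 with Col4a4 lie head to head in the rat genome, so that the start regions of each pair overlap. Their windows from 250 bases before to 50 bases after the start, from RefSeq on the build GRCr8, are shown because the windows of each pair overlap, and the capitals mark the bases that a window shares with that of its partner, read on the opposite strand. The starts of Col4a1 (plus strand, chr16:84885347-84885646) and Col4a2 (minus strand, chr16:84885471-84885770) are 77 bases apart and the windows share 176 bases. The starts of Col4a3 (plus strand, chr9:91323740-91324039) and Col4a4 (minus strand, chr9:91323528-91323827) are 413 bases apart and the windows share 88 bases. Those of Col4a5 and Col4a6 on chromosome X are 1415 bases apart, and their windows share 0 bases.
Col4a1: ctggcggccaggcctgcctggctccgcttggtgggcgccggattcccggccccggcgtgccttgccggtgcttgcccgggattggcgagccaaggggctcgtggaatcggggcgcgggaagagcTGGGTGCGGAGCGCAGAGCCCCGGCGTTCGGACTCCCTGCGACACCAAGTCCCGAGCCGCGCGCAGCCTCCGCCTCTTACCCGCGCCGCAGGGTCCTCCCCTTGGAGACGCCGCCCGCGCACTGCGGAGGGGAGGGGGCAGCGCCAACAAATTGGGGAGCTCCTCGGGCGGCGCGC
Col4a2: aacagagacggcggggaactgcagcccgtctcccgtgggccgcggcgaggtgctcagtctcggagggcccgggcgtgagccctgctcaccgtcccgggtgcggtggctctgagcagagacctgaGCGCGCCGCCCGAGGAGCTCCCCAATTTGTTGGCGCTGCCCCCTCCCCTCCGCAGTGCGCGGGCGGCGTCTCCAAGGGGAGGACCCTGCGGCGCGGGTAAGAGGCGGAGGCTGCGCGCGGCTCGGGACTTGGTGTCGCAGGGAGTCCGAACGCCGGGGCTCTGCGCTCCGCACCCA
Col4a3: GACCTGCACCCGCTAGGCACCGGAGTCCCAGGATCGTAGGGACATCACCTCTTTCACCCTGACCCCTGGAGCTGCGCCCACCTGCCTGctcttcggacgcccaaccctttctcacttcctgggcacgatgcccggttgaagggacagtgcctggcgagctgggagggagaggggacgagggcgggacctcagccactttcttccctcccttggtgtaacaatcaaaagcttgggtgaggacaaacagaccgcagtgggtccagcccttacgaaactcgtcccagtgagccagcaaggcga
Col4a4: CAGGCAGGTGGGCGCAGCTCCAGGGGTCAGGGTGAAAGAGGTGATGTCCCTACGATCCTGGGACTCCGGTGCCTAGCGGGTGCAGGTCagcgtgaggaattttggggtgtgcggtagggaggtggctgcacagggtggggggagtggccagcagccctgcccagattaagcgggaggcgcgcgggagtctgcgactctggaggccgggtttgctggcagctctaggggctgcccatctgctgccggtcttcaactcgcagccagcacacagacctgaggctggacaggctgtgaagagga
The letters GGGCGG or, on the other strand, CCGCCC, the core of a GC box, occur in the stretch shared by Col4a1 and Col4a2 and in the unshared part of the Col4a3 window. They occur in 33.1% of all 33469 windows of the same length and in 19 of the 34 collagen windows in the table. The letters CCAAT or ATTGG occur in the stretch shared by Col4a1 and Col4a2, in 37.5% of all windows and in 11 of the 34. The letters TATAAA or TTTATA occur in 14.2% of all windows, in 4 of the 34 and in none of these 4. The coordinates belong to these sequences alone, since the counts may rest on another build.

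Within a pair the ratio of UMIs moved less between libraries than the levels did. In fibroblast-like nuclei there were 1.26, 0.921, 0.787 and 1.1 UMIs of Col4a3 for each of Col4a4 in libraries 1 to 4, while the summed CPM of Col4a3, Col4a4 and Col4a5 was 1995, 301, 327 and 445. In mural-like nuclei the ratio was 0.381, 0.667, 0.327 and 0.348, below the fibroblast-like value in each library. In library 2 the mural-like ratio rested on 8 UMIs of Col4a3 and 12 of Col4a4, too few to set it apart. Col4a1 over Col4a2 was 7.1, 7.71, 6.31 and 5.59 in fibroblast-like nuclei and 4.63, 7.17, 5.74 and 6.18 in mural-like nuclei.

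The other basement membrane genes were Col15a1 and Col18a1, whose proteins carry heparan or chondroitin sulphate chains. Col18a1, the source of the fragment endostatin, was at 1012, 842, 949 and 796 CPM in Schwann or neuronal-like nuclei and 248, 472, 589.8 and 675 CPM in lymphatic endothelial-like nuclei, against 58.1, 110.4, 62.4 and 109 CPM in fibroblast-like nuclei. In fibroblast-like nuclei of libraries 3 and 4 it was at least 2-fold lower than in the other named nuclei, where 5.74 and 5.63% of all genes were. Col15a1 was at 219, 121, 78 and 80.0 CPM in fibroblast-like nuclei of libraries 1 to 4 and 60.5, 79.1 and 104 CPM in endothelial-like nuclei of libraries 1, 3 and 4. Of these 3 libraries, library 1 was the one in which fibroblast-like nuclei stood clearly above endothelial-like nuclei. In library 4 the order was the reverse, with intervals of 96.1 to 112 CPM in endothelial-like and 69.9 to 91.0 CPM in fibroblast-like nuclei.

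Schwann or neuronal-like nuclei, named from a marker list that includes Sox10, numbered 109, 33, 50 and 49 in libraries 1 to 4. Col16a1, Col18a1 and Col20a1 were at least 2-fold higher in them than in all other named nuclei in all 4 libraries, 3 of 24 collagen genes, where 1.06% of all genes were. Col20a1, a FACIT collagen, was at 65.3, 51, 78.5 and 64.2 CPM in these nuclei and at 10.9, 11.9, 5.64 and 8.38 CPM in fibroblast-like nuclei. Col16a1 was also at least 2-fold higher in fibroblast-like nuclei in all 4 libraries, and Col18a1 in lymphatic endothelial-like nuclei. Col27a1, a fibrillar collagen of cartilage, was at 245, 204, 121 and 103 CPM in Schwann or neuronal-like nuclei. Fibroblast-like nuclei had 36.2, 155, 60.8 and 71.2 CPM of it. Col27a1 passed the 2-fold bound in Schwann or neuronal-like nuclei of libraries 1, 3 and 4, where 1.51% of all genes did. Col7a1, the collagen of anchoring fibrils in skin, was at 16.3, 51, 171 and 83.4 CPM and passed the bound in libraries 2, 3 and 4, where 8.50, 3.57 and 3.37% of all genes did. The value of library 2 rested on 2 UMIs for Col7a1 and on 2 for Col20a1, each with an interval of 6.18 to 184 CPM. Col7a1, Col20a1, Col25a1 and Col27a1 fall outside the rule of 100 UMIs in the highest class and were picked after their values were seen. Counts were small, since Col16a1 rested on 281 UMIs and Col20a1 on 31 in this class. The 13 fibroblast markers summed to 70.4, 72.4, 55.2 and 63.4% of their fibroblast-like level in Schwann or neuronal-like nuclei, a list that holds Lama2, while Pdgfra was at 1.54, 48.9, 12.8 and 11.3% of it, and their part in the fibrillar values of this class was not tested.

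Lymphatic endothelial-like nuclei, named from Prox1, Flt4 and others, were 129, 27, 182 and 79 in number. Col13a1, a transmembrane collagen known from the neuromuscular junction, was at 170.4, 119 and 51.4 CPM in these nuclei of libraries 1, 3 and 4 and at 2.85, 11.2 and 20.0 CPM in the other endothelial-like nuclei. It was listed at 0 UMIs in the 27 nuclei of library 2. Col8a2, the partner of Col8a1 in type VIII collagen, was at 38.9, 42.9, 45 and 48 CPM in lymphatic endothelial-like nuclei, against 13.7, 3.58, 4.93 and 4.89 CPM in fibroblast-like nuclei, on 44 UMIs in the class, and was also picked after its values were seen. With Col18a1 these were the 3 of 31 collagen genes at least 2-fold higher than in all other named nuclei in libraries 1, 3 and 4, where 1.74% of all genes were. Col4a3, Col4a5 and Col6a6 were lower in them in those libraries, where 2.67% of all genes were.

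Endothelial-like nuclei of blood vessels and endocardium had low levels of fibrillar collagen beside all other named nuclei, which include the fibroblast-like ones. In libraries 1, 3 and 4 together 0 of 31 collagen genes were at least 2-fold higher than in all other named nuclei, where 3.30% of all genes were, and 7 were lower, where 2.86% were. The 7 were Col1a1, Col3a1, Col4a3, Col5a1, Col5a3, Col14a1 and Col16a1. Low Col1a1 was not particular to this class. In library 1 it was at 35.2 CPM in endothelial-like, 24.2 in macrophage-like and 15.1 in cardiomyocyte-like nuclei. Endothelial-like nuclei were the lowest of these classes in libraries 3 and 4, at 610 and 252 CPM. Fibrillar collagens summed to 490.3, 2291 and 1119.7 CPM and basement membrane collagens to 1077, 1519 and 1907 CPM in endothelial-like nuclei of these libraries. The count of lower genes was 4 with no nuclei removed as doublets and 15 after free RNA was subtracted.

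RNA freed from broken cells can reach every droplet, so the fibrillar collagens of classes not known for making them are given beside the fibroblast markers. In endothelial-like nuclei fibrillar collagens stood at 9.6, 22.8 and 14.9% of the fibroblast-like level in libraries 1, 3 and 4, and the 13 fibroblast markers at 8.34, 25.4 and 14.2%. Pdgfra alone, by its CPM values given above, stood at a lower share than either in each of these libraries. In macrophage-like nuclei the fibrillar sum was at 5.12, 26.6, 30.4 and 46.2% of the fibroblast-like level in libraries 1 to 4, beside 10.1, 37.3, 37.8 and 45.8% for the markers. In cardiomyocyte-like nuclei it was at 3.52, 16.1, 31.6 and 20.6%, beside 37.3, 53.9, 46.4 and 34.4% for the markers and 1.24, 13, 27.5 and 14.5% for Pdgfra alone. Library 1 had the lowest of these fibrillar shares in each of the classes just named. Col4a1 did not follow them in endothelial-like nuclei, where it stood at 90.3, 92.3 and 98.8% of the fibroblast-like level. How much of the collagen RNA in these classes was free was not tested.

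Macrophage-like nuclei of library 4 had the most collagen RNA of the immune classes of that library, with 6157 CPM of all collagens, 810.2 of Col1a1 and 1719 of Col3a1. Without the macrophage-like cluster of the highest UMI count (a median of 4220 UMIs per nucleus) the value of library 4 was 2165 CPM for all collagens, and the fibroblast markers were at 20.1% of the fibroblast-like level in place of 45.8%. In library 3 the change was smaller, 3817 CPM without the cluster, against 4619 CPM with it.

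Between libraries the fibroblast-like nuclei differed most in Col4a3, Col12a1, Col6a6 and Col4a4. Of 30 collagen genes with enough UMIs, 16 were at least 2-fold apart between the highest and the lowest library, where 28.4% of all genes were. The median span was 1.06 on the log2(CPM + 10) scale, against 0.68 for all genes, and 12 genes were that far apart without library 2. Library 1 was the highest for 7 of the 16, namely Col4a3, Col4a4, Col4a5, Col6a6, Col14a1, Col15a1 and Col24a1. Col6a6 was at 457 CPM (95% interval 433 to 482) in library 1 and between 54.3 and 93.2 in the other libraries, and Col4a3 at 780.5 (749 to 813) and between 76.4 and 163. Col12a1 had the opposite order, at 16.7 CPM (12.4 to 22.1) in library 1 and between 179 and 223 in the other libraries.

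Col1a1 and Col3a1 of the fibrillar group and Col8a1 of the network group were lowest in library 1 or 2. Col1a1 spanned 2.19 and Col8a1 1.17 on the log2 scale, lowest in library 1 and highest in library 3, and Col3a1 spanned 1.14, lowest in library 2. The type V genes and the main type VI genes were under the 2-fold bound, with spans of 0.56 for Col5a1, 0.94 for Col5a2, 0.59 for Col5a3, 0.90 for Col6a1 and 0.43 for Col6a2. Those of Col5a2 and Col6a1 were close to it and above the median span of all genes, and that of Col6a1 was 1.06, past the bound, when values were taken relative to the median of all genes in each library. Nearly all fibroblast-like nuclei of library 1 (2379 of 2391) lay in 1 cluster, nearly all of library 2 (798 of 821) in another, and those of libraries 3 and 4 in the 2 further clusters compared next. Library and cluster, and with them treatment and depth, cannot be told apart here. In endothelial-like nuclei 12 of 30 collagen genes were at least 2-fold apart between libraries 1, 3 and 4, where 18.5% of all genes were. In mural-like nuclei 15 of 24 were, where 44.6% were, and in cardiomyocyte-like nuclei 20 of 32, where 35.3% were, 13 of them highest in library 3.

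**Figure D3:**
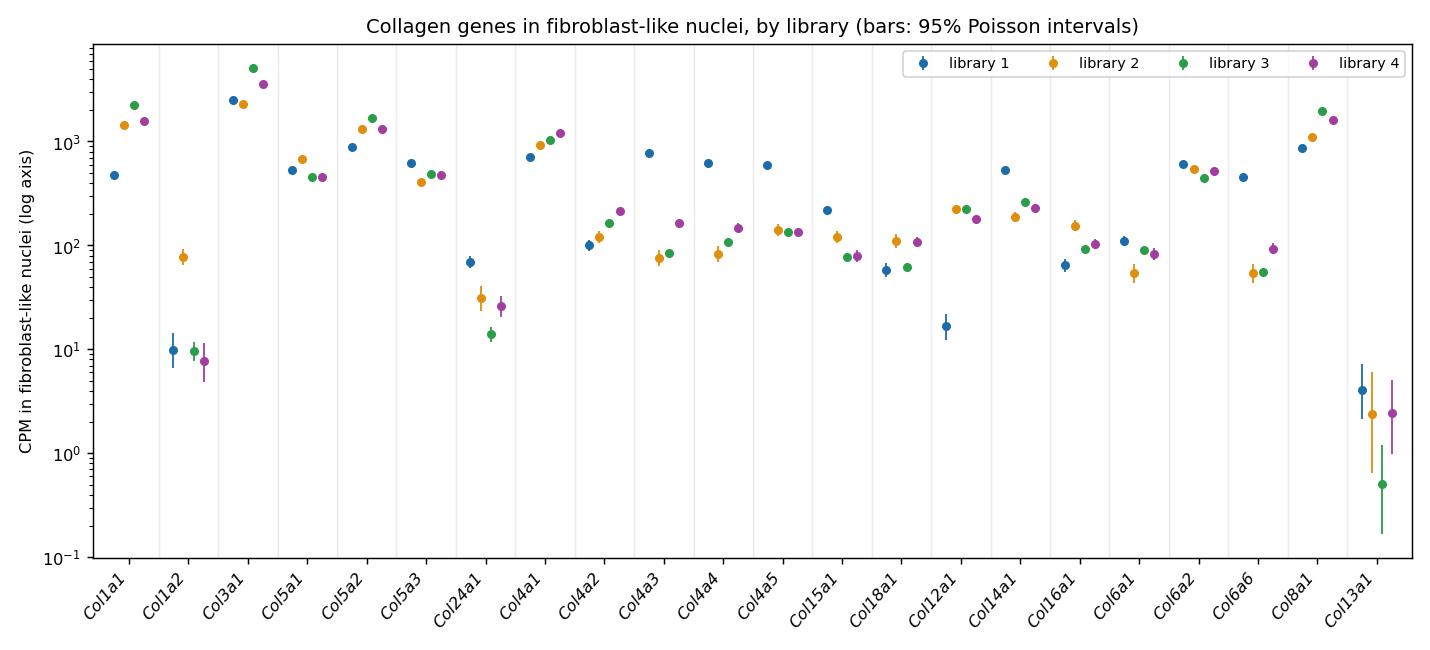
CPM of 22 collagen genes in fibroblast-like nuclei (y axis, log scale), with a point for each of 4 libraries and 95% Poisson intervals. Library 1 stood above the other libraries for Col4a3, Col4a4, Col4a5 and Col6a6 and below them for Col12a1 and Col1a1, and library 2 stood above them for Col1a2.

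Libraries 3 and 4 each held a pair of fibroblast-like clusters, one led by Adam12, a metalloprotease of activated fibroblasts, and the other by genes that include Scara5, a scavenger receptor of resting adventitial fibroblasts. Since the same clusters occurred in both libraries, they could be compared within each. The Adam12-led cluster held 2311 nuclei of library 3 and 456 of library 4, the Scara5-led cluster 558 and 383. Col12a1 was at 246 CPM (236 to 257) in Adam12-led nuclei of library 3, against 71.8 CPM (58.1 to 87.7) in Scara5-led nuclei. In library 4 it was at 244 CPM in Adam12-led nuclei, against 60.2 CPM in Scara5-led nuclei. It was the collagen gene at least 2-fold higher in the Adam12-led cluster in both libraries, where 2.74% of all genes were. Collagen genes with enough UMIs numbered 26 in library 3 and 23 in library 4, so that the upward count was near that share.

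Col4a3, Col4a4, Col6a6 and Col15a1 were at least 2-fold lower in the Adam12-led cluster in both libraries, where 1.78% of all genes were. The collagen genes with enough UMIs were again 26 and 23 in libraries 3 and 4. Col4a3 was at 43.2 CPM in Adam12-led nuclei of library 3, against 344 CPM in Scara5-led nuclei, and at 42.2 CPM in Adam12-led nuclei of library 4, against 384 CPM in Scara5-led nuclei. Col4a4 was at 73.1 CPM in Adam12-led nuclei of library 3 and 322 CPM in Scara5-led nuclei, and Col6a6 at 27.6 CPM in Adam12-led nuclei of library 4 and 215 CPM in Scara5-led nuclei. Col15a1 was at 63.1 CPM in Adam12-led nuclei of library 3, against 173 CPM in Scara5-led nuclei.

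Col1a1 and Col3a1, by contrast, differed little between the clusters. Col1a1 was at 2242 CPM in Adam12-led nuclei of library 3 and 2122 CPM in Scara5-led nuclei, and at 1674 CPM in Adam12-led nuclei of library 4 and 1411 CPM in Scara5-led nuclei. Col3a1 was somewhat lower in the Adam12-led cluster, with log2 differences of -0.24 and -0.27 in libraries 3 and 4, and Col5a2 higher, with 0.98 and 0.85. In library 3 alone Col5a3 also passed the bound upwards, at 1.04, which made 2 of 26 genes higher and 4 lower, where 3.08 and 1.85% of all genes were. In library 4 alone Col7a1 and Col27a1 did, and Col14a1 passed it downwards, at -1.61, which made 3 of 23 genes higher and 5 lower, where 4.47 and 3.76% were. The median of the collagen genes counted was -0.05 and 0.24 in libraries 3 and 4, against 0.02 and 0.06 for all genes. The Adam12-led cluster was the deeper, with medians of 3107 UMIs per nucleus in it and 2025 in the Scara5-led cluster.

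**Figure D4:**
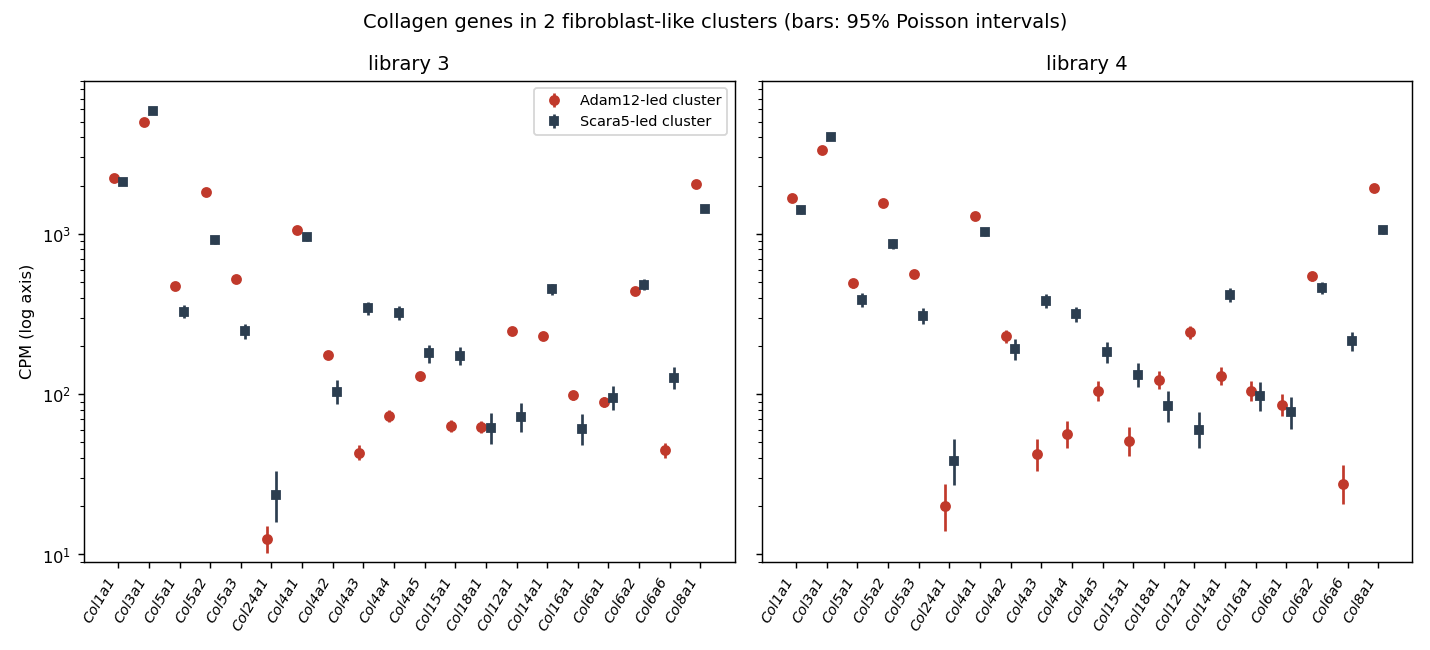
CPM of the collagen genes with enough UMIs (y axis, log scale) in the Adam12-led and the Scara5-led fibroblast-like cluster, in libraries 3 and 4, with 95% Poisson intervals. Col4a3, Col4a4, Col6a6 and Col15a1 lay lower and Col12a1 higher in the Adam12-led cluster of both libraries, and Col1a1 lay close together.

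Genes that build, process and crosslink collagen were compared between fibroblast-like nuclei and all other named nuclei in the same way. Of 34 listed genes 31 were in the matrix and 27 had enough UMIs in every library. Of these 27, 9 were at least 2-fold higher in fibroblast-like nuclei in all 4 libraries and 0 were lower, where 2.09 and 2.37% of all genes were. The 9 were Plod2, P3h3, Fkbp10, Creb3l1, Adamts2, Adamts14, Lox, Loxl1 and Loxl2, and the median log2 difference of the 27 was 1.14. Adamts2, which removes the amino-terminal propeptide of fibrillar collagens, was at 788, 682, 604 and 625 CPM in fibroblast-like nuclei of libraries 1 to 4, against 48.8, 143, 122 and 124 CPM in all other named nuclei. Loxl1, a crosslinking oxidase, was at 147, 231, 340.4 and 320.2 CPM in fibroblast-like nuclei and 3.3, 42.8, 99.3 and 64.2 CPM in the others. Plod2, which hydroxylates lysines for crosslinks, was at 570.0, 973, 786 and 781 CPM in fibroblast-like nuclei and 63.9, 258, 204 and 195 CPM in the others.

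At the low end of the list stood Tll1, P3h2 and Mia2. Tll1, a protease that removes the carboxy-terminal propeptide, was at 7.18, 26.8, 13.3 and 19.9 CPM in fibroblast-like nuclei, against 83.5, 62.2, 87.3 and 211 CPM in the other named nuclei, and was at least 2-fold lower in 3 libraries. P3h2, a prolyl hydroxylase, and Mia2, a cargo receptor for export, had median log2 differences of 0.05 and 0.02. Between libraries Lox went with Col1a1 in being lowest in library 1, at 26.7, 119.9, 248 and 276 CPM in fibroblast-like nuclei of libraries 1 to 4. The count of 9 was 5 at a finer cluster resolution and 16 after free RNA was subtracted.

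Of 10 genes of collagen receptors and uptake, 6 had enough UMIs in every library. Of these, 2 were at least 2-fold higher in fibroblast-like nuclei in all 4 libraries while 0 were lower. The comparison is that of the biosynthesis list, so the shares of all genes given there apply here too. Mrc2, an endocytic receptor that clears collagen fragments, was at 461, 246, 275 and 275 CPM in fibroblast-like nuclei, against 9.28, 26.5, 43.1 and 43.5 CPM in all other named nuclei. Ddr2, a receptor tyrosine kinase for fibrillar collagen, was at 597, 391, 340.2 and 360.0 CPM in fibroblast-like nuclei, against 27.5, 91.7, 69.1 and 63.1 CPM. The next was Ddr1, with a median log2 difference of 0.69. Itga1, the integrin chain that binds type IV collagen, was the lowest, at 133, 254, 170.3 and 178 CPM in fibroblast-like nuclei and 404, 256, 177 and 309 CPM in the other named nuclei. Lair1 of leukocytes and Gp6 of platelets had under 3 CPM in fibroblast-like nuclei and in the others in each library.

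Of the 43 collagen genes, 22 had at least 100 UMIs in the class where they were highest and are those shown in the plots. By median CPM over libraries, among classes with at least 100000 UMIs, 12 of them were highest in fibroblast-like nuclei, 6 in mural-like nuclei (Col4a1, Col4a2, Col4a4, Col6a6, Col12a1 and Col24a1), 2 in Schwann or neuronal-like nuclei (Col16a1 and Col18a1), 1 in cardiomyocyte-like nuclei (Col4a5) and 1 in lymphatic endothelial-like nuclei (Col13a1). For Col4a4 and Col6a6 the medians of mural-like and fibroblast-like nuclei were close, and the value of fibroblast-like nuclei was higher in 3 of 4 libraries. The intervals of these classes overlapped for both genes in libraries 2 and 4, and fibroblast-like nuclei were clear of mural-like nuclei in library 1 alone. In library 3 the intervals of Col4a4 overlapped. For Col6a6 mural-like nuclei (61.1 to 99.7 CPM) lay above fibroblast-like nuclei (51.2 to 60.7 CPM) there. Against all other named nuclei, Col6a6 is among the 11 genes higher in fibroblast-like nuclei in all 4. The other 21 genes had fewer, and their totals over all barcodes ran from 1 UMI for Col23a1 to 3265 for Col27a1. The cartilage collagens Col2a1, Col9a1, Col9a2, Col9a3, Col10a1 and Col11a1 had 10, 45, 59, 30, 106 and 108 UMIs. Col17a1 and Col19a1 had 614 and 790 UMIs, found in several classes. Col19a1, also picked after its values were seen, was at 53.3, 7.69, 21.7 and 6.51 CPM in macrophage-like nuclei of libraries 1 to 4. All other named nuclei had 13.5, 7.70, 5.61 and 4.36 CPM, and the value of library 1 rested on 11 UMIs. In mural-like nuclei Col19a1 was at 44.1, 14.7, 8.10 and 21.1 CPM.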

How the data were processed

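Nuclei had been isolated with a Dounce homogeniser and libraries made with a 10x 3' kit, per the labels' protocols. The deposited matrix holds raw UMI counts of 32623 genes in 48637 barcodes. Its header, per the file headers, was written by cellranger 5.0.1, but the submitters' processing notes list Cell Ranger 6.1.1, Seurat and rn7, so the build behind the counts is unsettled. No other upstream step is known here. The collagen genes, gene lists and comparisons were chosen with earlier results of these data known.

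Minimums of 500 UMIs and 300 genes and a ceiling of 10% mitochondrial UMIs kept 9013, 14603, 16453 and 6521 nuclei of libraries 1 to 4, and the highest doublet scores of scrublet were removed at 0.8% per 1000 nuclei (649, 1705, 2165 and 340). Counts were scaled to 10000 per nucleus and log-transformed with scanpy 1.11.5. Leiden clustering (resolution 1, 15 neighbours) on 30 components of 2000 variable genes, collagens excluded and libraries not integrated, returned 26 clusters. Choosing variable genes by library and scaling each gene were settings picked after others had left the fibroblasts of library 2 unnamed. A cluster was named when at least 3 markers of a class were 2-fold higher and seen in 5% of its nuclei, and led the next class by 0.5 in mean log2. Of 138 markers 131 were found.

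UMIs were summed by class and library and divided by the class total, which gives CPM. The design provides no replicates, so calls are by size: 2-fold on log2(CPM + 10), with 30 UMIs over the groups compared, and no p-value is given. The order of libraries is that of the suffixes. Genes named with values by rule had at least 100 UMIs in their highest class. Col7a1, Col8a2, Col19a1, Col20a1, Col25a1 and Col27a1 were added after their values were seen. Of the 2 pathway lists the 3 highest and 3 lowest genes were named. The free RNA alternative subtracts from each class the profile of all nuclei of its library, at the share that would account for all UMIs of other classes' markers, an upper estimate. Call steps were tested on simulated data. Alternatives for doublets, clustering, depth, free RNA, scaling, pseudocount and count minimum were tried.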

Additional observations from a re-analysis of the deposited data

How the results depend on the processing

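No paired analysis was possible because each group is 1 library and the barcodes carry no replicate number. No result turned its direction under any alternative tried. Scaling by the median of ratios and dropping the UMI minimum kept all 8 counts within 1.5 times, and the count of 11 genes higher in fibroblast-like nuclei ran from 11 to 14. With log2(CPM + 1) the endothelial count between libraries was 20 in place of 12, and the fibroblast one 22 in place of 16. With no doublets removed, the lower genes in endothelial-like nuclei were 4, the fibrillar sum of fibroblast-like nuclei 4977 CPM in library 1, 10383 in library 3 and 7878 in library 4, and the fibroblast-like share of collagen UMIs 71.5% in library 2, 46.2% in library 3 and 31.4% in library 4. With collagens among the variable genes the fibrillar sum of library 3 was 9968 CPM and the shares 64.5, 43.4 and 52.0% in libraries 1 to 3. With at least 1000 UMIs per nucleus the sums were 5191, 10539 and 8001 CPM in libraries 1, 3 and 4 and the shares 62.8, 76.7, 53.0 and 36.0%. At resolution 2 the biosynthesis count was 5, the sums 5957, 10525 and 8171 CPM in libraries 2 to 4, and the shares 43.3 and 55.5% in libraries 2 and 3. After free RNA was subtracted, 15 genes were lower in endothelial-like nuclei, 7 higher in mural-like nuclei and 16 of the biosynthesis list higher. The fibrillar sums were then 5943, 9285, 13689 and 9768 CPM, the endothelial basement membrane sums 1032, 1730 and 2004 CPM in libraries 1, 3 and 4, and the shares 78.2, 90.9, 85.8 and 55.2%. With variable genes chosen over the pool, an alternative added after the data were seen, the sums were 8095 and 9701 CPM in libraries 2 and 3 and the shares 64.3, 14.1, 53.6 and 36.3%. The fibroblast-like share of library 2 thus ran from 14.1 to 76.7% over the clusterings tried. The cause was not tested. Without library 2 the count between libraries was 12. Outside these counts, sums and shares, 2 results were weaker under scaling by the median of ratios. Another 4 alternatives had 1 weaker result each, namely collagens among the variable genes, at least 1000 UMIs, resolution 2 and free RNA subtracted. Col27a1 lost its call in fibroblast-like nuclei in 3 alternatives. Depth limits the 21 genes under 100 UMIs and the Schwann or neuronal-like and lymphatic classes, whose libraries held 27 to 182 nuclei.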

Other observations

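Collagen RNA was also counted in the nuclei that no marker list named. The unnamed cluster of 9877 library 2 nuclei had 5597 CPM of all collagens (5537 to 5657), with 773 CPM of Col1a1, 897 of Col3a1, 858 of Col4a1 and 49.9 of Col1a2. The second unnamed cluster of library 2, of 1070 nuclei, had endothelial markers as its best list but too few of them for a name. It had 4632 CPM of all collagens, with 558 CPM of Col1a1, 633 of Col3a1, 874 of Col4a1 and 43.2 of Col1a2. An unnamed cluster led by Acta1, Mb and Nppa, genes of striated muscle, had 8389 CPM of all collagens in 766 nuclei of library 3 and 6421 CPM in 803 nuclei of library 4, and Col1a2 at 9.47 and 7.04 CPM.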
